A study of Drosophila melanogaster with 6 samples.

Results

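Genes of the early secretory route were followed in Drosophila S2 cells, an embryo-derived line that behaves like macrophages, given fragments of dying S2 cells. The set was drawn by name from the array annotation: probe sets with a single gene whose symbol starts with Sec, Cog or Trs and a digit, starts with TRAPP, or ends in COP. It comprised 33 genes of the 11983 named genes measured, each with 1 probe set. By role these were 4 genes of the ER translocon (Sec61alpha, Sec61beta, Sec61gamma, Sec63), 5 of the COPII coat (Sec13, Sec16, Sec24AB, Sec24CD, Sec31), 6 of the COPI coat (alphaCOP, betaCOP, deltaCOP, epsilonCOP, gammaCOP, zetaCOP), 6 of the COG complex (Cog1, Cog2, Cog4, Cog6, Cog7, Cog8), 4 of TRAPP (Trs20, Trs23, Trs31, Trs33), 5 of the exocyst (Sec3, Sec5, Sec8, Sec10, Sec15) and 3 others (Sec20, Sec22, Sec71). Cog3, beta'COP, Sec6 and Sec23 carry symbols that fit the same pattern in the current gene table but were not analysed here.

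The stimulated cultures received 25 apoptotic fragments per cell for 1 h, and their controls received medium alone for the same time; each group had 3 arrays. Fragments came from S2 cells killed with cycloheximide, a blocker of protein synthesis, and both groups were kept in low serum and lifted with trypsin and EDTA before RNA was prepared. The labels call the replicates biological without naming separate cultures or days, so p-values measure the spread between these arrays. Both groups are the same cell line, so RNA of the fragments cannot be told apart from that of the phagocytes, nor cycloheximide carried over with the fragments from the fragments themselves. A difference in cell number and one in RNA per cell, neither of them measured here, could not be told apart either.

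Proteins destined for secretion or for membranes enter the endoplasmic reticulum (ER) through the Sec61 channel. COPII-coated vesicles carry them towards the Golgi, and COPI-coated vesicles return material to the ER and move it back through the Golgi. Tethering complexes catch the vesicles before fusion: TRAPP at the Golgi, where it also activates Rab GTPases, COG for recycling within the Golgi, which keeps glycosylation enzymes in place, and the exocyst at the plasma membrane. SNARE proteins such as Sec20 and Sec22 then drive the fusion itself.

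One array stood apart from its group. Over all probe sets, medium-alone replicates 1 and 2 correlated at r = 0.9993, whereas medium-alone replicate 3 correlated with them at 0.99 and 0.9907. The fragment arrays correlated with one another at 0.9974 to 0.9988. Results that rest on medium-alone replicate 3 are given with and without it. Of the hemocyte markers, croquemort (crq), a scavenger receptor gene, read between 9.18 and 10.20 log2 units on the 6 arrays and Hml, the hemolectin gene, between 8.68 and 9.66, while 3 of 13 measured hemocyte markers (NimC1, PPO1, lz) had flat values. In the fit of the varying probe sets crq fell by 0.80 log2 units (limma adjusted p = 0.00559), while the other varying hemocyte markers did not pass; of the 10 that varied, 2 read higher (srp by 0.29 and vkg by 0.12) and 8 lower. In the same fit bam, a germ-line marker gene, rose by 0.91 (0.0224), reading 7.84, 7.98 and 7.62 with fragments, against 7.06, 6.96 and 6.69 in medium alone. Of the 6 measured markers of other cell types, 3 were flat and elav and vas did not pass; the part of other cells in the results was not tested.

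Sec20 read higher and Sec22 and Trs20 lower after 1 h with fragments, and most other genes of the secretory machinery were within 1.5-fold of medium alone. With limma over all 18769 probe sets, 0 of the 33 genes passed an adjusted p of 0.05, against 0.304% of all probe sets, and 3 (Sec20, Sec22, deltaCOP) had an unadjusted p under 0.05 (10.8% of all probe sets did). A count of 0 among 33 does not set the genes apart from the rest of the array. The deposited values of 7 members were flat, meaning that they moved by less than 0.01 log2 units over the 6 arrays, as did 61.4% of all probe sets. These were Sec13, betaCOP, Cog1, Cog8, Sec3, Sec5 and Sec10, with levels between 7.42 and 10.49. A flat value can show no change, and it does not show that a gene is silent. When only the 7241 varying probe sets were tested, 1 of the 26 varying members passed (3.85%), the SNARE gene Sec20, which rose, against 6.85% of all varying probe sets (2.29% higher and 4.56% lower with fragments). An unadjusted p under 0.05 was reached there by 4 of the 26 (15.4%: Sec20, Sec22, deltaCOP, Trs20), against 23.6% of the varying probe sets.

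Among the 26 varying members, 10 read higher and 16 lower with fragments, with a median log2 fold change of -0.021, against -0.0035 over all varying probe sets. When the arrays were set instead to the mean of 18 hybridisation spike probe sets, every difference rose by 0.26 log2 units. Of these members 12 turned from lower to higher. On that scale limma called 6 of the 33 in the fit of all probe sets (Sec16, Sec24AB, gammaCOP, Trs20, Sec20 and Sec22), against 1685 of all 18769. In the fit of the varying ones it called 5 of the 26 (these without gammaCOP), against 1490 of the 7241 (20.6%). The members' median was -0.062 without fragment replicate 3 and 0.0035 without fragment replicate 2. The median size of the difference, regardless of sign, was 0.096 log2 units for both the members and the varying probe sets. For 22 of the 26 the 95% interval of the difference lay within a 2-fold change in either direction, against 6719 of the 7241 varying probe sets. The 4 members whose interval reached beyond 2-fold were Sec22, Trs20, Trs33 and Sec61gamma, each on the lower side. The arrays of the groups did not overlap for 5 members (19.2%), Sec20, Sec16 and deltaCOP being higher and Sec22 and Trs20 lower with fragments, against 32% of the varying probe sets (14.7% higher and 17.4% lower).

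**Figure D1:**
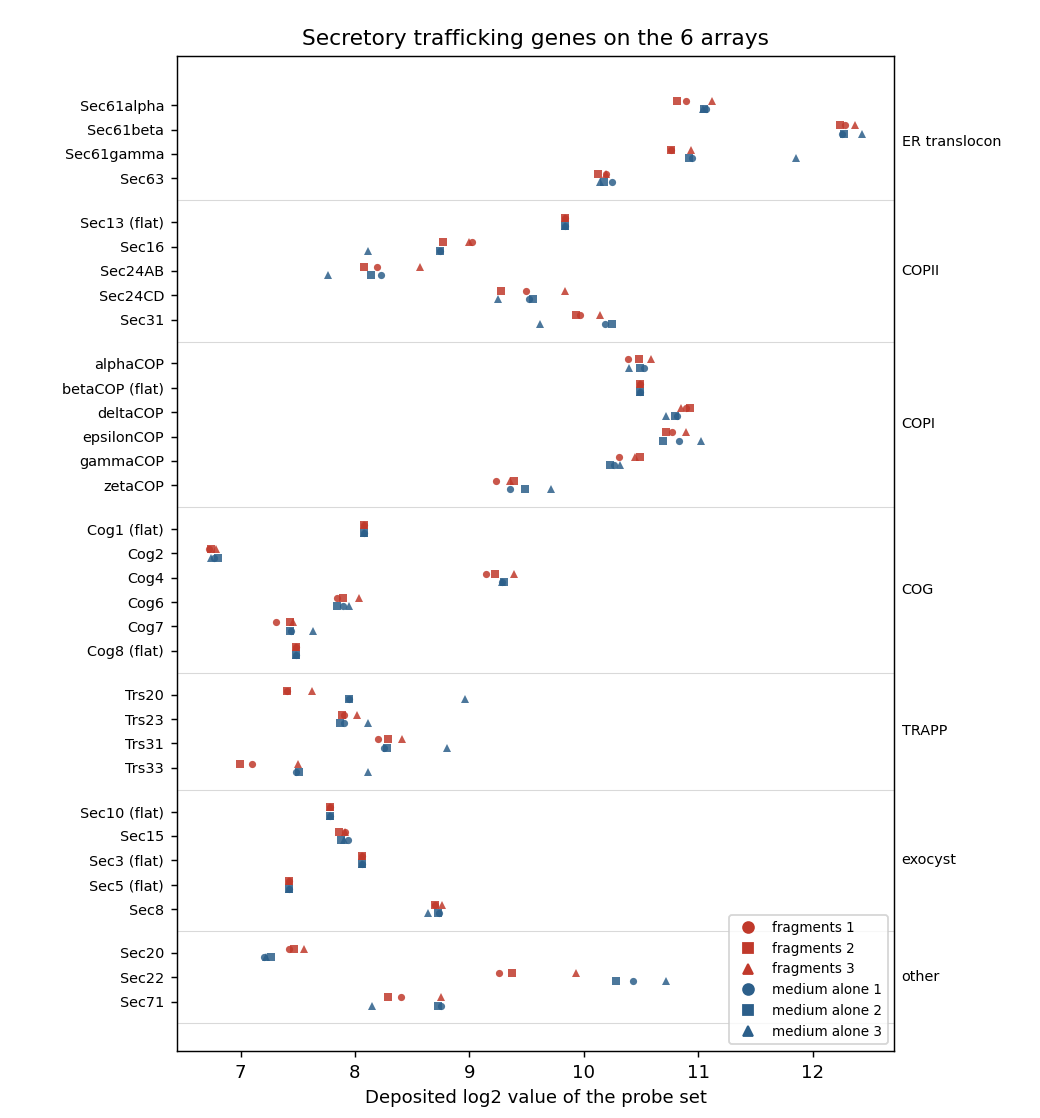
Deposited log2 value of each of the 33 genes (rows, by complex) on the 3 fragment arrays (red) and the 3 medium-alone arrays (blue), with circle, square and triangle for replicates 1, 2 and 3. Sec22 is the gene with the widest gap between the groups, flat genes show 1 position, and the blue triangle, medium-alone replicate 3, stands apart for Sec61gamma, Sec16, Sec31, Trs20, Trs31, Trs33 and Sec71; each probe set has its own response, so levels of different genes are not comparable.

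Among the 33 members, the SNARE genes Sec22 and Sec20 had the smallest unadjusted limma p in both fits, with differences in opposite directions. Sec22 (gene identifier 31030, probe set 1635709_at) encodes a SNARE that works between the ER and the Golgi. It read 9.26, 9.37 and 9.93 on the fragment arrays, against 10.43, 10.28 and 10.72 on the medium-alone arrays. Each fragment array lay below each array of medium alone, with fragment replicate 3 the closest. The means were 9.52 ± 0.361 with fragments and 10.48 ± 0.221 in medium alone (SD, n = 3 each), a 1.94-fold lower level with fragments. The log2 fold change was -0.96 (95% interval -1.49 to -0.42), and 1.06% of the varying probe sets had a lower one. It did not pass (limma adjusted p = 0.313 in the fit of all probe sets, and 0.0648 in that of the varying ones). Without fragment replicate 3 the difference was -1.16 and passed among the varying probe sets (limma adjusted p = 0.0335). Without medium-alone replicate 3 it was -0.83 (0.0793). Nor did Sec22 pass without medium-alone replicate 1 or 2 (limma adjusted p = 0.143 and 0.124) or without fragment replicate 1 or 2 (0.192 and 0.212). Sec22 passed among the varying probe sets with a stricter cut of 0.1 for varying (limma adjusted p = 0.033) and with the replicate number as a block (0.0331). It also passed on the spike scale (limma adjusted p = 0.000425), where 20.6% of the varying probe sets did. The difference there was smaller, at -0.69. That scale gave every probe set the same shift on each array, so this pass adds no support for Sec22.

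Sec20 (gene identifier 40724, probe set 1631062_at) encodes a SNARE of the ER that receives vesicles returning from the Golgi, a role established in yeast. It read 7.42, 7.47 and 7.55 with fragments, against 7.21, 7.27 and 7.22 in medium alone. The groups were separate and the 3 arrays of medium alone close together (SD 0.0331, and 0.0647 with fragments). Sec20 rose by 0.25 log2 units, or 1.19-fold (95% interval 0.14 to 0.36), in the fit of the varying probe sets (limma adjusted p = 0.0359), but did not pass over all probe sets (0.181). That call was lost without medium-alone replicate 1 or 2 (limma adjusted p = 0.112 and 0.0937) and without fragment replicate 1, 2 or 3 (0.0847, 0.134 and 0.0672). It was kept without medium-alone replicate 3 (limma adjusted p = 0.0459), where 12.1% of the varying probe sets passed. The difference itself stayed between 0.22 and 0.28 in these 6 omissions. In yeast the partners of Sec20 in its SNARE complex include Use1 and Sec22, and the fly gene Use1, from a list of partner genes, differed by 0.044 log2 units and did not pass (adjusted p = 0.93 over all probe sets).

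The remaining gene outside the complexes was Sec71, an exchange factor that loads Arf GTPases with GTP at the Golgi. It read 8.40, 8.28 and 8.75 with fragments, against 8.75, 8.73 and 8.15 in medium alone. The groups overlapped: medium-alone replicate 3 was the lowest of the 6 arrays, and fragment replicate 3 lay between the other medium-alone arrays. The log2 fold change was -0.066 and became -0.26 without that array, and neither passed in limma (adjusted p = 0.955 and 0.745 over all probe sets).

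**Figure D2:**
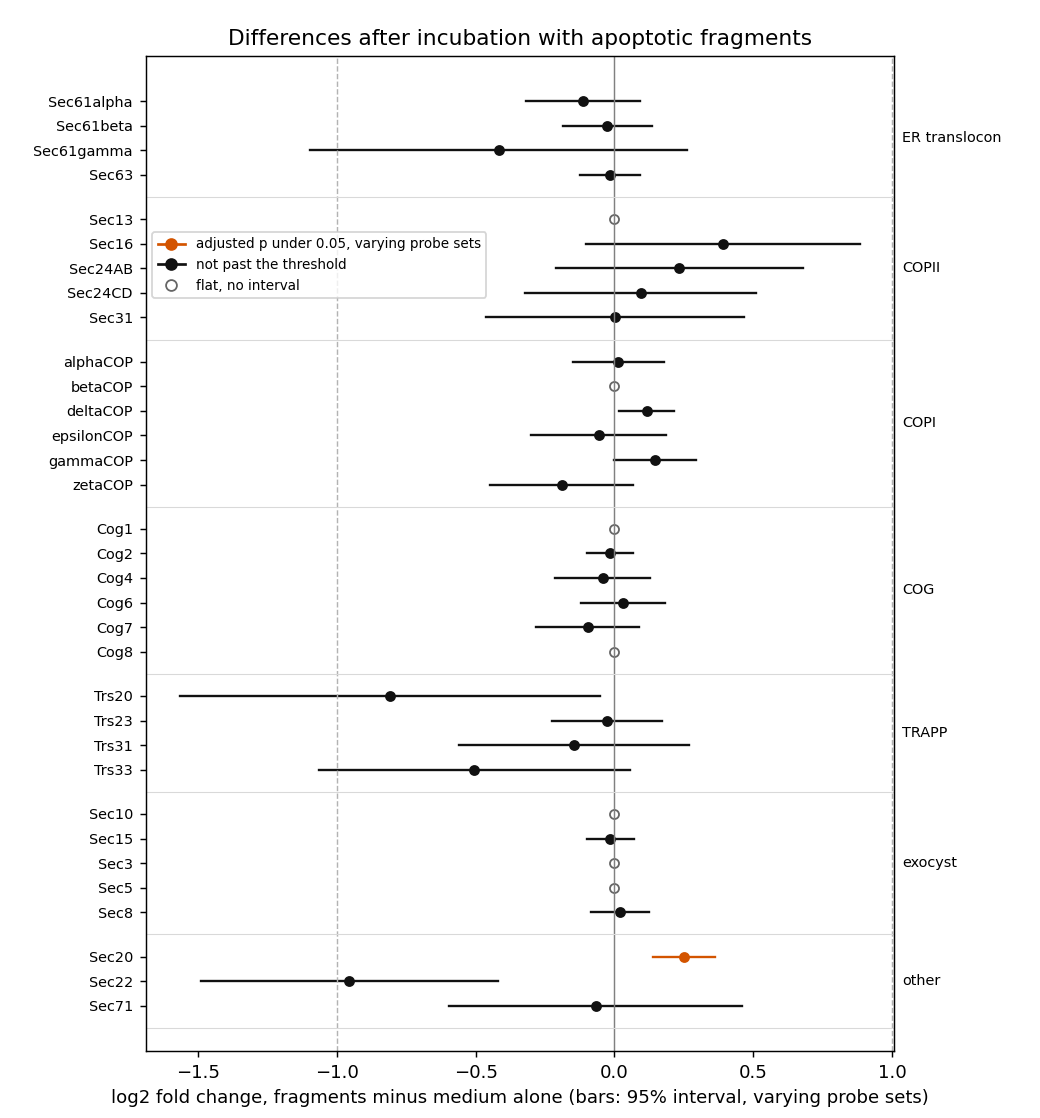
Log2 fold change of each gene, fragments minus medium alone (x axis), by complex; bars are 95% intervals from limma over the varying probe sets, not adjusted for the number of genes, dashed lines mark a 2-fold change, and open circles are flat genes without an interval. Sec20 (0.25) is the single gene past the threshold, while Sec22 (-0.96) and Trs20 (-0.81) have the lowest estimates and wide intervals.

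Genes of the ER translocon read slightly lower with fragments in 4 of 4 cases (on the spike scale Sec61alpha, Sec61beta and Sec63 were higher), and 0 of 4 passed in either limma fit or reached an unadjusted p under 0.05; their median log2 fold change was -0.068, with -0.023 without fragment replicate 2 and -0.13 without fragment replicate 3. Sec61alpha, the pore-forming subunit, read 10.89, 10.82 and 11.12 with fragments, against 11.07, 11.05 and 11.04 in medium alone. The fragment arrays spread on both sides of the tight medium-alone arrays, and the difference was -0.11 (95% interval -0.32 to 0.09). Sec61gamma, a small subunit that clamps the channel, stood at 10.76, 10.76 and 10.94 with fragments, against 10.94, 10.92 and 11.85 in medium alone. Its log2 fold change of -0.42 was -0.11 without medium-alone replicate 3. Sec61beta, the remaining channel subunit, differed by -0.025 (95% interval -0.18 to 0.13). For Sec63, a membrane protein that brings the chaperone BiP to the channel, values were 10.19, 10.13 and 10.20 with fragments and 10.25, 10.18 and 10.14 in medium alone, a difference of -0.017 (95% interval -0.12 to 0.09).

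COPII genes leaned the other way: the 4 varying members read higher with fragments or level, with a median log2 fold change of 0.16, and 0 passed in either limma fit or had an unadjusted p under 0.05. The median was 0.047 without medium-alone replicate 3 and 0.019 without fragment replicate 3. Sec16, the scaffold that marks ER exit sites and recruits the coat, read 9.02, 8.77 and 9.00 with fragments, against 8.74, 8.75 and 8.12 in medium alone. The groups did not overlap, yet fragment replicate 2 stood close to the first 2 arrays of medium alone; the difference of 0.39 (limma adjusted p = 0.307 among the varying probe sets) became 0.18 without medium-alone replicate 3. Sec24AB, which binds cargo in the inner layer of the coat, read 8.20, 8.08 and 8.56 with fragments and 8.23, 8.14 and 7.77 in medium alone. Here the groups overlapped, with fragment replicate 3 the highest and medium-alone replicate 3 the lowest array, and the difference was 0.23 (95% interval -0.21 to 0.68), 0.095 without medium-alone replicate 3 and 0.092 without fragment replicate 3. On the spike scale Sec16 and Sec24AB passed in both fits, at 0.65 and 0.50 (limma adjusted p = 0.00101 and 0.0177 among the varying probe sets). That scale raised every difference alike, and 20.6% of the varying probe sets passed on it (1322 higher, 168 lower). As deposited, Sec24AB had a limma adjusted p of 0.504 among the varying probe sets. Sec24CD, a relative of Sec24AB, showed the same 2 extremes, with 9.83 on fragment replicate 3 and 9.25 on medium-alone replicate 3. It differed by 0.095, or by -0.00064 without medium-alone replicate 3. Sec31, of the outer cage, had equal group means of 10.01; its medium-alone arrays read 10.18, 10.24 and 9.61, and without the last the difference was -0.20 (limma adjusted p = 0.562 over all probe sets). Sec13, the partner of Sec31 in the cage, was flat at 9.83.

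COPI genes were divided, with 3 of the 5 varying members higher and 2 lower with fragments (median 0.015; those 2, epsilonCOP and zetaCOP, were higher on the spike scale), and 0 passed in either limma fit; deltaCOP alone of the 6 had an unadjusted p under 0.05. The gene deltaCOP, whose product belongs to the adaptor-like inner part of the coat, read 10.90, 10.93 and 10.85 with fragments, against 10.81, 10.79 and 10.72 in medium alone. The groups did not overlap but lay close, at a difference of 0.12 (95% interval 0.02 to 0.22; limma adjusted p = 0.159 among the varying probe sets). Another inner-layer gene, gammaCOP, gave 10.31, 10.49 and 10.45 with fragments and 10.26, 10.23 and 10.32 in medium alone. One array of medium alone reached into the range of the fragment arrays, and the difference was 0.15 (limma adjusted p = 0.215 among the varying probe sets). The small subunit gene zetaCOP went the other way at 9.24, 9.39 and 9.35 with fragments, against 9.36, 9.48 and 9.71 in medium alone, a difference of -0.19 that was -0.092 without medium-alone replicate 3. Of the outer-layer genes, alphaCOP differed by 0.015 and epsilonCOP by -0.057. The inner-layer gene betaCOP was flat at 10.49. For 5 of the 5 varying COPI genes the 95% interval stayed within a 1.5-fold change, against 5527 of the 7241 varying probe sets.

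COG genes differed little: the 4 varying members had log2 fold changes between -0.096 and 0.030 (on the spike scale Cog2, Cog4 and Cog7 turned to higher), and 0 passed in either limma fit or had an unadjusted p under 0.05. Cog7, a subunit of the second lobe of the tether, read 7.31, 7.44 and 7.46 with fragments, against 7.44, 7.43 and 7.63 in medium alone. These values overlapped, and without medium-alone replicate 3 the difference of -0.096 was -0.031. Cog2, of the first lobe, read 6.73, 6.75 and 6.79 with fragments and 6.76, 6.80 and 6.74 in medium alone, a difference of -0.015. Cog4 and Cog6 differed by -0.042 and 0.030, with fragment replicate 3 the highest array for both. Cog1 and Cog8 were flat at 8.08 and 7.49. In 4 of the 4 varying COG genes the 95% interval lay within a 1.5-fold change, as for 5527 of the 7241 varying probe sets.

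**Figure D3:**
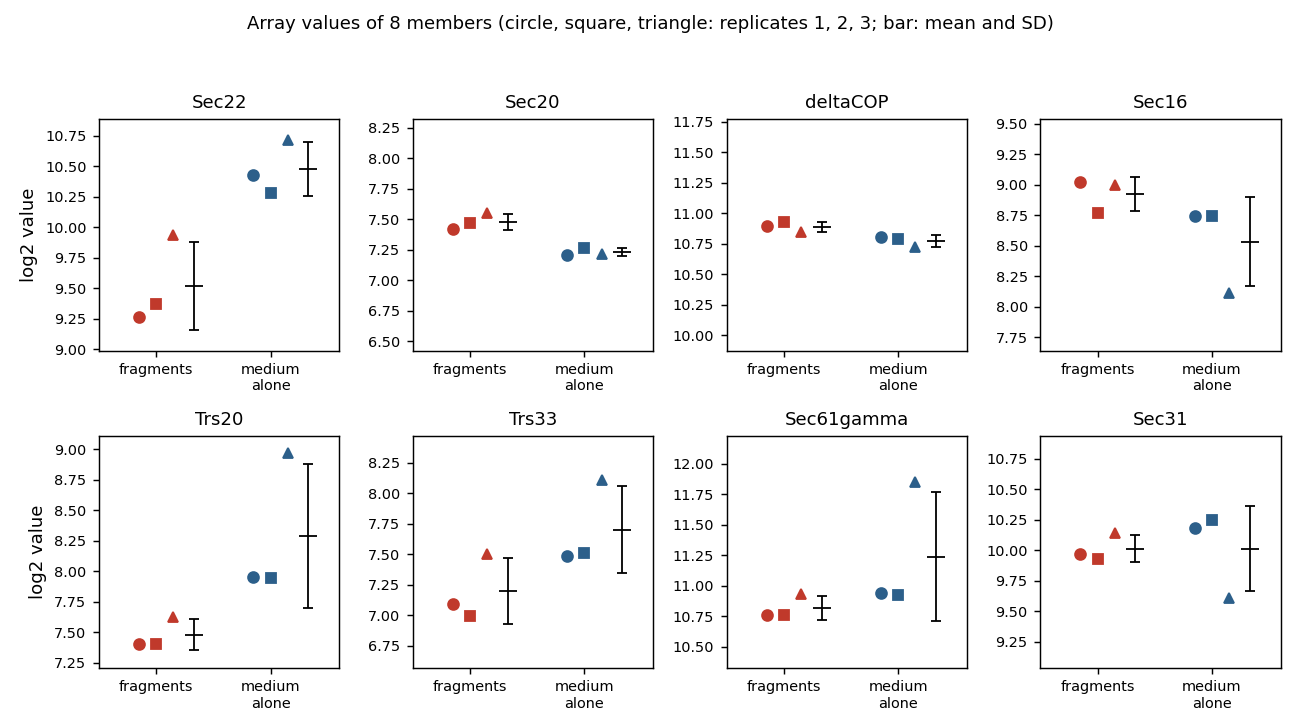
Log2 values of 8 genes on the fragment arrays (red, left) and medium-alone arrays (blue, right), each panel spanning the same number of log2 units; circle, square and triangle are replicates 1, 2 and 3, and black bars give the mean and SD (n = 3). Sec22, Sec20, deltaCOP, Sec16 and Trs20 show groups that do not overlap, and medium-alone replicate 3 (blue triangle) is far above the other arrays for Trs20 and Sec61gamma and below them for Sec16 and Sec31.

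TRAPP genes had the lowest median of the complexes, -0.32, and 4 of 4 read lower with fragments (Trs23 and Trs31 higher on the spike scale), but 0 passed in either limma fit, and Trs20 alone had an unadjusted p under 0.05, among the varying probe sets. Trs20, a small core subunit, read 7.41, 7.40 and 7.63 with fragments, against 7.95, 7.95 and 8.97 in medium alone. The groups were separate, and medium-alone replicate 3 stood 1.02 log2 units above the other medium-alone arrays. The difference was -0.81, a 1.75-fold lower level (95% interval -1.57 to -0.05), and did not pass (limma adjusted p = 0.53 in the fit of all probe sets, and 0.187 in that of the varying ones). Without medium-alone replicate 3 it was smaller, -0.47, and passed among the varying probe sets (limma adjusted p = 0.0289), with the medium-alone arrays left both at 7.95. In that fit 12.1% of the varying probe sets passed, against 6.85% with all arrays. It did not pass there without medium-alone replicate 1 or 2 (limma adjusted p = 0.198 and 0.206) or fragment replicate 1, 2 or 3 (0.413, 0.405 and 0.275).

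Trs33, another core subunit, read 7.10, 7.00 and 7.51 with fragments, against 7.49, 7.51 and 8.11 in medium alone. Fragment replicate 3 reached the level of the first 2 arrays of medium alone, and the difference of -0.50 was -0.30 without medium-alone replicate 3. Trs31 gave 8.20, 8.29 and 8.41 with fragments and 8.26, 8.28 and 8.80 in medium alone. For Trs31 the sign changed from -0.15 to 0.032 when that array was left out, and for Trs23 from -0.026 to 0.049. The median of the 4 genes was then -0.13. Each of the 4 TRAPP genes had its highest value on medium-alone replicate 3, and so did Bet5, a further TRAPP subunit gene from the partner list, at 9.22 there against 8.67 to 8.85 on the other 5 arrays; Bet3, the central subunit gene, was flat.

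Exocyst genes showed little difference or none that could be seen. Sec3, Sec5 and Sec10 were flat at 8.06, 7.42 and 7.79, as were Exo70 and Exo84 of the partner list, so that 5 of the 7 exocyst genes measured could show no change. Sec15, the subunit that binds Rab11, read 7.91, 7.86 and 7.91 with fragments, against 7.94, 7.88 and 7.91 in medium alone, and the values overlapped throughout (difference -0.014, 95% interval -0.10 to 0.07). Sec8 differed by 0.020 (95% interval -0.08 to 0.12). Neither passed in either limma fit or had an unadjusted p under 0.05.

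Medium-alone replicate 3 gave the highest or the lowest value for 17 of the 26 varying members (65.4%), close to the 63.5% of all varying probe sets. It was the highest array for 4 of 4 TRAPP genes and the lowest for 4 of 4 varying COPII genes. It lay at least 0.5 log2 units from the mean of the other medium-alone arrays for 7 members (26.9%), against 13.2% of the varying probe sets: above it for Trs20, Sec61gamma, Trs33 and Trs31, and below it for Sec16, Sec31 and Sec71. By contrast, medium-alone replicates 1 and 2 differed by at most 0.143 log2 units for any varying member. What sets this array apart was not tested. Leaving it out changed the sign of 8 of the 26 differences.

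**Figure D4:**
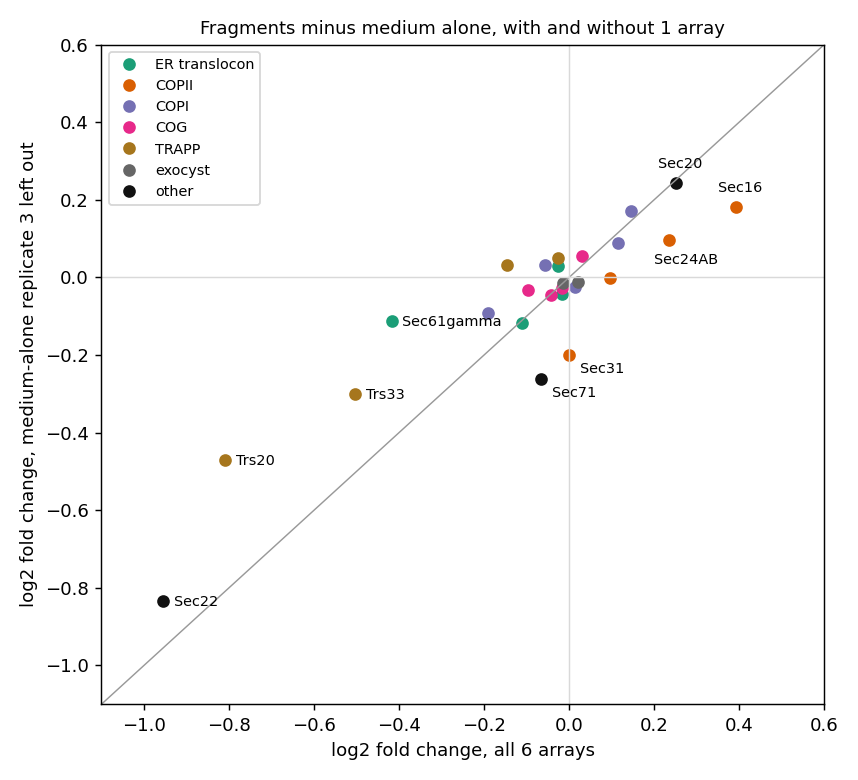
Log2 fold change of the 26 varying genes with all 6 arrays (x axis) and with medium-alone replicate 3 left out (y axis), coloured by complex; the diagonal marks equal values. Sec20 stays on the diagonal (0.25 and 0.25), Sec22 near it (-0.96 and -0.83), while Trs20, Trs33 and Sec61gamma move towards 0 and Sec31 and Sec71 move below it.

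Other genes of the same route, listed by their role, gave 0 calls as deposited. Of 43 measured partners, 35 of them varying, 0 passed in either limma fit, against 0.304% of all and 6.85% of the varying probe sets. On the spike scale 2 partners passed in each fit. That scale called 1685 of all 18769 probe sets and 1490 of the 7241 varying ones (20.6%). As deposited, an unadjusted p under 0.05 was reached by 4 of the 43 partners over all probe sets (10.8% of all probe sets), the flat Spase25 among them. Among the varying ones 2 of the 35 reached it (5.71%, against 23.6%), and the median log2 fold change of these partners was -0.016. TRAM, which assists the Sec61 channel, read 10.53, 10.42 and 10.54 with fragments, against 10.72, 10.66 and 10.68 in medium alone; the groups did not overlap, at a difference of -0.18 (limma adjusted p = 0.0801 among the varying probe sets). The SNARE gene Vti1a read 8.12, 8.43 and 8.38 with fragments, against 7.93, 7.97 and 8.10 in medium alone, a difference of 0.31 (0.131). Srp14 of the signal recognition particle, which guides ribosomes to the channel, differed by -0.40 (0.34), again with its highest value, 9.71, on medium-alone replicate 3. The ER exit cargo receptor gene Tango1 differed by 0.16 and the R-SNARE gene Ykt6 by 0.12, and neither passed.

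In the genome annotation, 2 pairs of the members are near neighbours: Sec61alpha and epsilonCOP, with 2 protein-coding genes between them, and Cog2 and Trs33, with 3. The log2 fold changes in these pairs were -0.11 and -0.057, and -0.015 and -0.50.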

How the data were processed

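The authors deposited log2 values of 18952 probe sets on 6 Affymetrix arrays, from 5.35 to 14.1. R 2.7.2 is listed among the tools of the submitters' processing notes. Methods of probe summary and array normalization are not given in the sources used here. Precision is limited by the number of arrays, which have no depth. The 183 manufacturer's controls were left out. Genes were named from the array annotation (13647 probe sets with 1 gene, 402 with several, 4720 unnamed), and the identifiers of 33 of 33 members were found in the current RefSeq table (Release 6 plus ISO1 MT). The values name no genome build, so coordinates are left out. One probe set that names zetaCOP together with another gene was not used.

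Groups and replicate numbers came from the sample titles. Fragments minus medium alone was fitted in R 4.3.3 by limma 3.58.1 (lmFit, then eBayes without trend; two-sided, Benjamini-Hochberg adjustment, threshold 0.05) over all 18769 probe sets, and again over the 7241 whose range over the arrays was at least 0.01. Flat probe sets left the first fit nearly without moderation (0.123 prior degrees of freedom, against 1.36). Choosing probe sets by their range can make the second set of p-values too small or too large. The fits were tested on simulated data. All members were named; array values are given for called members and for the 3 of smallest p in each complex, and those of Sec22, Sec71, Sec24CD, Sec31 and the partner genes were added after their values were seen. The members and lists were chosen with earlier results of these data known. No scan dates or other batches are given in the labels.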

Additional observations from a re-analysis of the deposited data

How the results depend on the processing

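Over all probe sets, limma called 0 members under quantile normalization, trend and robust eBayes, a filter on low means, both other choices of probe set, the replicate block and with each array left out. Among the varying probe sets, leaving out 1 array gave 0 to 2 called members, against 1.78% to 12.1% of the varying probe sets. The labels do not say whether the replicate numbers pair the arrays. Deviations of arrays 1, 2 and 3 from their group means correlated with those of the same number at 0.442, 0.0381 and 0.375. Fragment replicate 1 correlated best with medium-alone replicate 2 (0.463), and fragment replicate 3 with medium-alone replicate 3. These values cannot settle a pairing, because medium-alone replicates 1 and 2 were nearly alike (r = 0.9993). The replicate block gave 2 (Trs33 and Sec22, limma adjusted p = 0.0401 and 0.0331) and lost Sec20 (0.0707), with 6.2% of the varying probe sets called. A stricter cut of 0.1 for a varying probe set gave 1 call, Sec22 (0.033) in place of Sec20 (0.0572), with 9.24% of the varying probe sets called.

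The spike scale, on which arrays were set to the mean of 18 hybridisation spike probe sets, added 0.26 log2 units to every difference. Of the varying probe sets it called 1490 (20.6%, 1322 higher and 168 lower), against 496 (6.85%, 166 higher and 330 lower) as deposited. With 1 array left out there were 129 to 876. In the fit of all probe sets limma called 57 as deposited, 1685 on the spike scale, 129 after quantile normalization, 205 with low means left out, 19 without probe sets of shared-probe suffix, 0 with the replicate block and 0 to 8 with 1 array left out. On the spike scale limma called 6 members in the fit of all probe sets, 5 in that of the varying ones, and 2 partners in each. Those p-values also carry the spikes' own spread between arrays. The same array shifts entered every probe set, so they can be too small as well as too large. For Trs20 the difference shrank from -0.81 to -0.55 on that scale. Its unadjusted limma p among the varying probe sets nevertheless fell from 0.0404 to 0.000962. The median log2 fold change was then 0.24 for the members, 0.19 for the ER translocon, 0.43 for COPII, 0.28 for COPI, 0.23 for COG, -0.063 for TRAPP and 0.26 for the exocyst. Sec22 was still lower, by -0.69, as was Trs20, by -0.55. The sign turned for 12 members: Sec61alpha became 0.15, Sec61beta 0.24, Sec63 0.25, epsilonCOP 0.21, zetaCOP 0.072, Cog2 0.25, Cog4 0.22, Cog7 0.17, Trs23 0.24, Trs31 0.12, Sec15 0.25 and Sec71 0.20. Quantile normalization turned Sec63 to 0.0020, Sec31 to -1.21e-05 and Sec15 to 0.0011.

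With 1 array left out, signs turned within these ranges of log2 fold change: Sec61beta -0.061 to 0.030, Sec63 -0.042 to 0.013, Sec24CD -0.054 to 0.23, Sec31 -0.20 to 0.12, alphaCOP -0.035 to 0.065, epsilonCOP -0.13 to 0.031, Cog4 -0.11 to 0.013, Cog6 -0.024 to 0.068, Trs23 -0.073 to 0.049, Trs31 -0.24 to 0.032, Sec15 -0.030 to 0.0030, Sec8 -0.012 to 0.039 and Sec71 -0.26 to 0.037. The median ran from -0.035 to 0.065 for COPI and from -0.072 to 0.0052 for COG. The cause of these turns was not tested. The number of arrays limits what can be seen: for Trs20 and Trs33 the intervals reach from near 0 to beyond a 2-fold lower level.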
